A study of Mus musculus with 2 samples.

Results

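The troponin complex sits at intervals along the thin filament of striated muscle and makes contraction depend on calcium. Troponin C binds calcium, troponin I holds back the interaction of actin with myosin, and troponin T ties the complex to tropomyosin. Each subunit is encoded by separate genes for fast skeletal, slow skeletal and cardiac muscle, except that slow skeletal and cardiac muscle share their troponin C. The 8 genes were taken by symbol and all were found among 55536 annotated genes. Troponin T is encoded by Tnnt3 (fast), Tnnt1 (slow) and Tnnt2 (cardiac), troponin I by Tnni2 (fast), Tnni1 (slow) and Tnni3 (cardiac), and troponin C by Tnnc2 (fast) and Tnnc1 (slow and cardiac). Of these, 7 had a mean of 1 TPM or more (a share of all transcripts, corrected for their length), as did 11229 genes in all, and Tnni3 did not.

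Total RNA was sequenced from the gastrocnemius, a calf muscle, of male B6CASTF1/J mice (B6Cast F1, a first-generation cross of C57BL/6J and CAST/EiJ) aged 25 days. There were 2 animals in 1 group, untreated as far as the labels say, with 1 library each made from 300 ng of RNA. The labels number the animals as different males although both carry the same donor entry, and they name spike-ins for stranded libraries with ribosomal RNA reduced. The libraries of animals 1 and 2 held 35098487 and 37428588 expected counts, so a count of 0 allowed up to 3 counts. Relative to each library, that is 0.0855 and 0.0802 CPM (counts scaled by library size). With 1 library per animal there is no replicate check on a difference between animals and no p-value is given. Such differences compare these libraries, and the intervals cover counting error only.

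The tissue label was set against marker genes. The 5 fast fibre markers (Myh4, Mylpf, Atp2a1, Casq1 and Actn3) summed to 43764 TPM in animal 1 and 42670 TPM in animal 2, and the 5 slow fibre markers (Myh7, Myl2, Myl3, Atp2a2 and Casq2) to 805 and 1489 TPM. Of the cardiac markers given here, Nppa, Nppb, Mybpc3 and Tbx20 had 0 counts in both libraries (a second deposited quantification gave Tbx20 0.148 and 0.203 TPM), while Ryr2 was at 0.09 TPM in animal 1 and 0.12 TPM in animal 2. Myh6, the alpha heavy chain, was the one of these with a level above 1 TPM, 58.5 TPM in animal 1 and 78.2 TPM in animal 2. The second quantification gave Myh6 26.8 and 33.9 TPM. Of 4 markers of developing or regenerating fibres, Myh3 and Myh8 were higher in animal 1, at 8.32 against 4.66 TPM and 131.8 against 98.8 TPM. Myl4 was lower (2.18 against 3.53 TPM), and Chrng was at 0.11 and 0.06 TPM. In that second quantification the TPM of Myh8 turned, to 138.2 in animal 1 against 157.5 in animal 2. The smooth muscle list summed to 68.7 and 86.4 TPM and the satellite cell list to 10.9 and 12.5 TPM in animals 1 and 2. In whole muscle, fewer fibres of a type and less RNA per fibre cannot be told apart.

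Several exons of the troponin T genes are alternative, and their sequences are shown because the results on isoforms turn on them. Fast troponin T carries 1 of a pair of mutually exclusive exons near its 3′ end, exon 16 or exon 17. Both are 41 bases long and lie on the plus strand of chromosome 7 in mm10, exon 16 at chr7:142513665-142513705 and exon 17 at chr7:142514326-142514366. Of the annotated coding transcripts of Tnnt3, 7 hold exon 16, 14 hold exon 17 and 0 hold both. Position by position, 18 bases are identical and 23 differ. Capitals mark the bases that differ.
Tnnt3 exon 16: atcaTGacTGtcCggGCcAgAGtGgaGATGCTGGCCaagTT
Tnnt3 exon 17: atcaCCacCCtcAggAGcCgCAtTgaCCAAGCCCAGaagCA

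Toward its 5′ end Tnnt3 has a run of short exons, 4 to 8, which encode an acidic, variable stretch of the protein, and then exon F, known from fetal and newborn muscle. Exon F is 39 bases long (chr7:142507750-142507788), exon 4 is 18 bases long (chr7:142502740-142502757) and exon 8 is 15 bases long (chr7:142505516-142505530). Slow troponin T has an alternative exon 5 of 33 bases (chr7:4513581-4513613, minus strand) and 2 forms of exon 6. The longer form, of 22 bases (chr7:4512265-4512286, minus strand), has 3 bases more than the form of 19 bases, which are in capitals.
Tnnt3 exon 4: aacaatacgaagaggaag
Tnnt3 exon 8: aggaagtccaagaag
Tnnt3 exon F: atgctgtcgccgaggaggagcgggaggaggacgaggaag
Tnnt1 exon 5: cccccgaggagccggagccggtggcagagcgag
Tnnt1 exon 6, longer form: AAGaagagcgccccaaacccag

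The fast genes held nearly all troponin messenger RNA. Tnnt3 (mm10 chr7:142498836-142516009, plus strand) had 13603 TPM in animal 1 and 12244 TPM in animal 2, or 12923 ± 961 TPM (SD, n = 2), and ranked 4 among nuclear protein-coding genes. Tnni2 (chr7:142441808-142444410, plus strand) had 7853 TPM in animal 1 and 7013 TPM in animal 2, with a mean of 7433 ± 594 TPM and rank 11. Tnnc2 (chr2:164777161-164779967, minus strand) had 8453 TPM in animal 1 and 6538 TPM in animal 2, with a mean of 7495 ± 1354 TPM and rank 10. Tnnt3 was the highest in both libraries. The levels of Tnnc2 and Tnni2 did not differ beyond their spread, and their order turned between the animals. Of the TPM of nuclear protein-coding genes, the 8 genes took 7.79% in animal 1 and 6.52% in animal 2.

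The slow genes stood lower by more than an order of magnitude. Tnnt1 (chr7:4504570-4516382, minus strand) had 180.5 TPM in animal 1 and 300.4 TPM in animal 2, with a mean of 240.5 ± 84.8 TPM and rank 163. Tnnc1 (chr14:31208312-31211729, plus strand) had 124.9 TPM in animal 1 and 244.9 TPM in animal 2, with a mean of 184.9 ± 84.9 TPM and rank 233. Tnni1 (chr1:135779434-135810989, plus strand) had 64.5 TPM in animal 1 and 139.4 TPM in animal 2, with a mean of 101.9 ± 53.0 TPM and rank 431. All 3 were lower in animal 1. Their means lay within the spread of their neighbours in the order, but Tnnt1, Tnnc1 and Tnni1 followed in that order within each animal.

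The cardiac genes were at the bottom of the family. Tnnt2 (chr1:135836354-135852260, plus strand), the cardiac gene that developing skeletal muscle also uses, had 2.28 TPM in animal 1 and 2.41 TPM in animal 2, from 56 and 69 counts. Tnni3 (chr7:4518305-4524229, minus strand), a marker of adult heart, had 3 counts in animal 1 and 2 counts in animal 2, or 0.13 and 0.09 TPM. A few counts were thus assigned to Tnni3 in each library, at or under the floor of 3 counts, so no ratio is given for it.

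**Figure D1:**
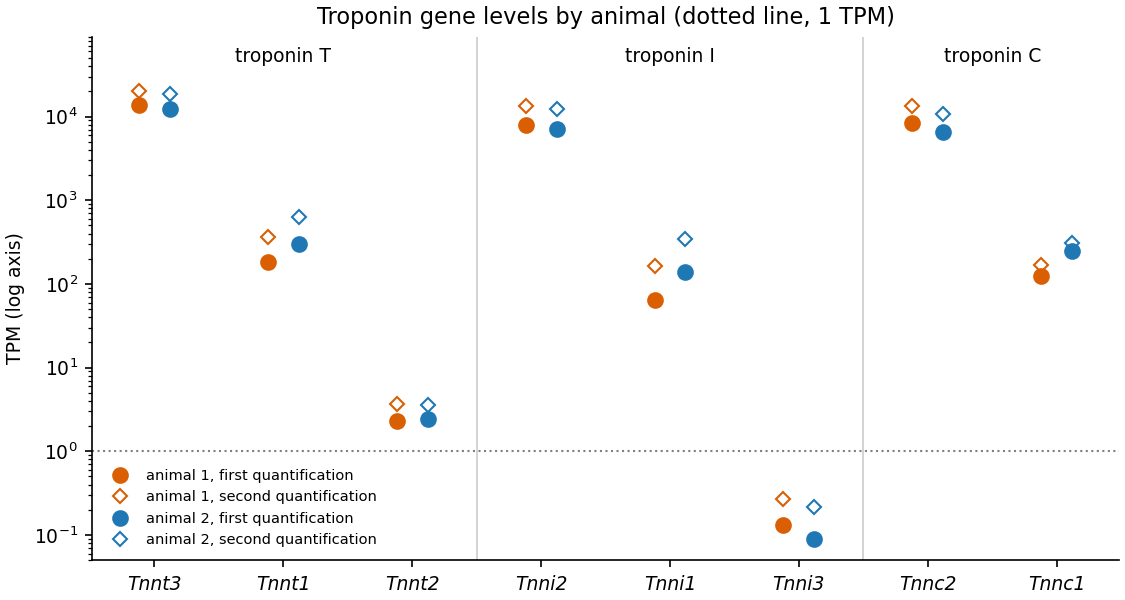
Level of each troponin gene in TPM on a log axis, grouped by subunit, with 1 point per animal; circles are the first quantification and open diamonds the second. Tnnt3, Tnni2 and Tnnc2 lie between 6538 and 13603 TPM in the first quantification, Tnnt1, Tnni1 and Tnnc1 between 64.5 and 300.4 TPM, and Tnnt2 and Tnni3 near or under 3 TPM.

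Levels came from the first of 2 deposited quantifications, made, per the deposited descriptions, from a transcriptome alignment and from a read file. In the second, where TPM is scaled to that table's own total, the fast genes were again the highest 3, at 19461 ± 1247 TPM for Tnnt3, 12759 ± 659 TPM for Tnni2 and 12042 ± 2030 TPM for Tnnc2. The slow genes had 496.8 ± 186.2 TPM (Tnnt1), 255.4 ± 130.1 TPM (Tnni1) and 237.7 ± 98.3 TPM (Tnnc1), so Tnni1 and Tnnc1 did not keep one order there. In the first tables the deposited TPM of Tnnt3, Tnni2, Tnnc2 and Tnni3 fell outside the interval deposited beside it, in both animals. For Tnnt3 in animal 1 that interval ran from 13255 to 13349 TPM, against a posterior mean of 13303 TPM and a deposited TPM of 13603.

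Each subunit was almost wholly of the fast type. Tnnt3 made up 98.7% of troponin T TPM in animal 1 and 97.6% in animal 2, and Tnnt1 1.31% and 2.40%. Tnni2 made up 99.2% of troponin I in animal 1 and 98.1% in animal 2, and Tnni1 0.814% and 1.95%. Tnnc2 made up 98.5% of troponin C in animal 1 and 96.4% in animal 2, and Tnnc1 1.46% and 3.61%. The slow share was lower in animal 1 for all 3 subunits. Summed over the family, Tnnt1, Tnni1 and Tnnc1 took 1.22% of TPM in animal 1 and 2.59% in animal 2. The cardiac genes took under 0.02% of their subunit.

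On the log2 scale, the level of fast over slow troponin T was 6.24 in animal 1 and 5.35 in animal 2. It was 6.93 and 5.65 for troponin I and 6.08 and 4.74 for troponin C. The means were 5.79 ± 0.63, 6.29 ± 0.90 and 5.41 ± 0.95 (SD, n = 2), and these spreads hold a shift between the animals that all 3 subunits shared. Within each animal troponin I was the highest, then troponin T, then troponin C. In the second quantification troponin I, at 6.339 and 5.145 in animals 1 and 2, was barely above troponin C, at 6.325 and 5.11. Troponin T was the lowest there, at 5.80 and 4.89, so the order of troponin T and troponin C did not hold. In the first quantification the difference between animals in the same ratio was 0.89 for troponin T, 1.28 for troponin I and 1.34 for troponin C. For 7 fast and slow pairs outside the family it ran from 0.24 (Myoz1 over Myoz2) to 1.08 (Atp2a1 over Atp2a2), with 0.91 for the heavy chains Myh4 over Myh7.

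The protein complex holds 1 of each subunit, and the messenger RNAs were not at equal levels. Summed troponin T exceeded summed troponin I by a ratio of 1.74 in animal 1 and 1.75 in animal 2, a spread of 0.0092 (SD, n = 2). Troponin T over troponin C was 1.61 and 1.85, and troponin I over troponin C was 0.923 and 1.05. The excess of troponin T over troponin I was therefore far larger than the spread between the animals, whereas troponin I and troponin C did not differ beyond it. In the second quantification the ratio of troponin T to troponin I was 1.55 and 1.52. Among the slow genes, Tnnt1 over Tnni1 was 2.80 in animal 1 and 2.16 in animal 2, and Tnni1 over Tnnc1 was 0.516 and 0.569. The second quantification gave 0.971 and 1.13 for Tnni1 over Tnnc1.

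Between the animals, the slow troponin genes were the family members that stood apart. Counts were scaled between the libraries by TMM, and a gene was counted as apart when the ratio of animal 1 to animal 2 passed 1.5-fold in either direction. Tnni1 had 1858 counts in animal 1 and 4264 in animal 2, a log2 ratio of -1.01 (95% counting interval -1.09 to -0.93). Tnnc1 had 2237 and 4649 counts, a log2 ratio of -0.87 (-0.94 to -0.80). Tnnt1 had 4600 and 8093 counts, a log2 ratio of -0.63 (-0.68 to -0.58), whose interval reached the 1.5-fold limit. Of the 7 members at 1 TPM or more, 3 were lower in animal 1 past 1.5-fold, against 2.08% of 11229 genes, and 0 were higher, against 3.11%.

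The fast genes lay on the other side of equality and within 1.5-fold. Tnnc2, with 146513 counts in animal 1 and 120050 in animal 2, had a log2 ratio of 0.47 (0.46 to 0.48), or 1.39-fold. Tnni2 had 143370 and 135596 counts and a log2 ratio of 0.27 (0.25 to 0.28). Tnnt3 had 347068 and 333262 counts and a log2 ratio of 0.24 (0.24 to 0.25). The interval of Tnnt2 ran from -0.65 to 0.41 and does not tell its direction. The median log2 ratio over the 7 members, -0.11, was the value of Tnnt2 itself, and it was 0.0067 in the second quantification. Over all genes tested the median was -0.02.

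**Figure D2:**
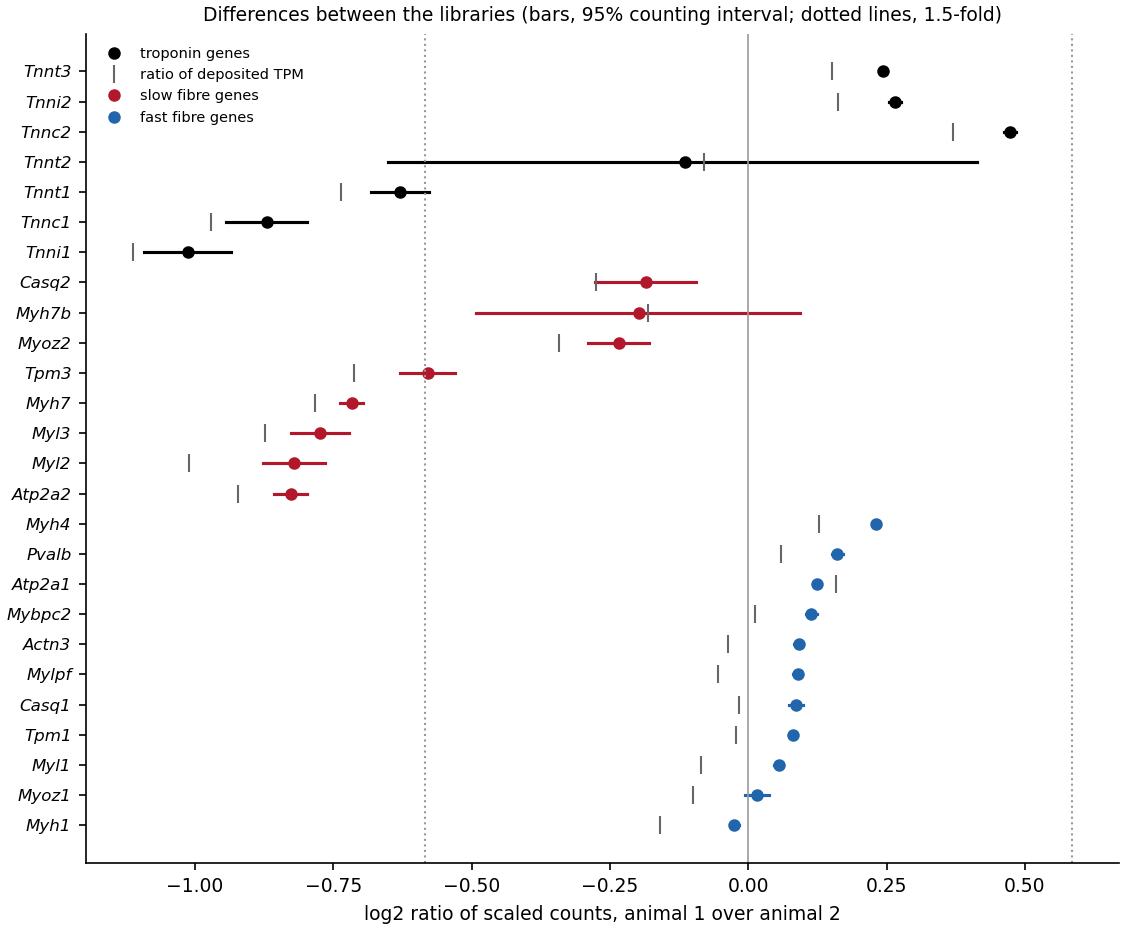
Log2 ratio of TMM-scaled counts, animal 1 over animal 2, for the 7 troponin genes at 1 TPM or more and for slow and fast fibre genes outside the family; bars are 95% counting intervals, ticks the ratio of deposited TPM and dotted lines 1.5-fold. Tnnt1, Tnnc1 and Tnni1 lie at -0.63 to -1.01 beside Myh7, Myl3, Myl2 and Atp2a2, while Tnnt3, Tnni2 and Tnnc2 lie at 0.24 to 0.47.

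Slow fibre genes outside the family were lower in animal 1 as well. Of 8 such genes, 4 were lower past 1.5-fold, against 2.08% of 11229 genes, and 0 were higher, against 3.11%. The median log2 ratio of the 8 was -0.65. The 4 were Myh7 (-0.72), the heavy chain of slow fibres, its light chains Myl2 (-0.82) and Myl3 (-0.77), and Atp2a2 (-0.83), the slow calcium pump. Slow tropomyosin, Tpm3, was just within the limit at -0.58 (-0.63 to -0.53) and past it at -0.71 by the ratio of TPM. By that ratio 5 of the 8 were lower past 1.5-fold, as were 528 of 11229 genes. Casq2, Myoz2 and Myh7b lay between -0.23 and -0.18 in scaled counts. Of 11 fast fibre genes 0 passed in either direction, which is near the background of 2.08% lower and 3.11% higher. Their median was 0.09 (-0.02 by the ratio of TPM), with a range from -0.03 (Myh1) to 0.23 (Myh4). Tnnc2 and Tnni2 lay above each of the 11, also by the ratio of TPM and in the second quantification. Tnnt3 did so only in the scaled counts of the first, since the second gave 0.22 for Tnnt3 and 0.24 for Myh4. Myh3, the embryonic heavy chain, and Myh8, the perinatal one, had log2 ratios of 0.93 and 0.68, past 1.5-fold and higher in animal 1. Myl4 of the same list was lower past 1.5-fold at -0.60. The second quantification gave 0.80, 0.29 and -0.56. The part of the markers of slow or developing fibres in the troponin differences was not tested.

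The partners of troponin on the thin filament mostly lay nearer to equality than the slow troponin genes. Of 13 genes for actin, tropomyosin, nebulin and the proteins that cap or lengthen the filament, 12 had a mean of 1 TPM or more and 0 passed 1.5-fold in scaled counts. Against 2.08% of all genes lower and 3.11% higher, a count of 0 among 12 is near the background. By the ratio of TPM, Tpm3 (-0.71) passed it. Skeletal actin, Acta1, had 21950 TPM in animal 1 and 23735 TPM in animal 2, a log2 ratio of -0.01. Tropomyosins Tpm1 and Tpm2, on which troponin T docks, had log2 ratios of 0.08 and 0.08, which turned to -0.02 and -0.04 by the ratio of TPM. Nebulin, Neb, had 2077 TPM in animal 1 and 2245 TPM in animal 2, a log2 ratio of -0.0028 in scaled counts and -0.11 by the ratio of TPM. Lmod2, which lengthens actin filaments, had a log2 ratio of 0.46 in scaled counts and 0.35 by the ratio of TPM. Cardiac actin, Actc1, had 891.4 and 863.3 TPM, unlike the cardiac troponins. The remaining genes, Acta2 (-0.38), Lmod3 (-0.29), Tpm4 (-0.09), Tmod1 (0.10) and Tmod4 (0.05), lay between, and Nebl had 0.24 and 0.37 TPM.

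For each member at a mean of 1 TPM or more, the gene outside the family nearest in level over both libraries was also named, from 14745 candidates. Tnnt1 and Tnnc1 were nearest to slow fibre genes, Tnnt1 to Myl3 (179.1 and 328.4 TPM in animals 1 and 2) and Tnnc1 to Atp2a2 (115.7 and 219.3 TPM). Tnni1 was nearest to Acaa2, an enzyme of mitochondrial fatty acid oxidation (83.0 and 106.2 TPM), but had no close match. Its distance in log2 TPM was 0.54, the largest in the family, against 0.13 for Tnnt1 and 0.19 for Tnnc1. Tnni2 and Tnnc2 were both nearest to the calcium buffer Pvalb (7500 and 7198 TPM), Tnnt3 to the light chain Myl1 (10856 and 11512 TPM), and Tnnt2 to Nucb2 (2.27 and 2.41 TPM). With 2 libraries this describes levels and nothing further.

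In the mouse genome the troponin T and troponin I genes lie in pairs. Tnni2 and Tnnt3, both fast, are 54425 bases apart on chromosome 7 and stood at 7433 and 12923 TPM on average. Between them lies Lsp1, a leukocyte actin-binding protein, with 18.9 TPM in animal 1 and 23.6 TPM in animal 2. Tnni1 and Tnnt2 are 25364 bases apart on chromosome 1 with Lad1 between them, at 3 counts in animal 1 and 1 count in animal 2. Tnni3 and Tnnt1 are 1922 bases apart on chromosome 7. A slow and a cardiac gene are thus paired in each of these last loci, with the slow gene the higher one, 101.9 against 2.35 TPM for Tnni1 and Tnnt2.

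Of the members, 4 overlap another gene. Tnnt3 overlaps Prr33 on the opposite strand by 7936 bases, with 3325 and 3813 counts for Prr33 in animals 1 and 2. Tnnc1 lies opposite Nisch (2552 and 2968 counts), Tnnc2 opposite Ube2c (24 and 13 counts), and Tnni3 on the same strand as Dnaaf3 (2 counts each). The sources used here do not state strand use in counting, so reads of Tnnc2 and Ube2c cannot be told apart where their transcripts overlap. No stretch of 100 bases was shared between members. Of the 100-base stretches in Tnnc2 transcripts, 22% also occur in Ube2c transcripts, and none of the other 7 genes, Tnnt3 and Tnnc1 included, shared one with another gene on either strand.

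The 8 genes have 85 annotated transcripts, 63 of them protein-coding. In Tnnt3, Tnnt1, Tnni2, Tnni1 and Tnnt2 the shares of transcripts in their gene lay closer between the animals than between the quantifications. The same transcript led in both animals and both quantifications for 3 genes, Tnnc2, Tnnc1 and Tnni3, and Tnni3 rests on 3 and 2 counts. Tnnc2-201 took 99.98% and 100% of Tnnc2 in animals 1 and 2 in the first quantification, and Tnnc1-202 took 98.98% and 99.3% of Tnnc1. For the other genes above 1 TPM, the mean shares of the first and second quantification differed by 82.8% of the gene's abundance in Tnnt3, 60.8% in Tnnt1, 95.3% in Tnni2, 84.4% in Tnni1 and 99.2% in Tnnt2. Between the animals, the same measure in the first quantification was 6.16% in Tnnt3, 4.96% in Tnnt1, 0.175% in Tnni2 and 2.11% in Tnni1. It was 72.8% in Tnnt2, which had 56 and 69 counts. In the second quantification it was 9.66% in Tnnt3, 8.82% in Tnnt1, 6.16% in Tnni2, 11.6% in Tnni1 and 22.1% in Tnnt2. Effective length, by which counts are divided, was read in animal 1 only. There it was 99 bases under the transcript length in the first deposited quantification. In the second it was 345.2 bases under it (median), over transcripts of at least 700 bases. The part of this difference in the split was not tested.

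Fast troponin I shows the disagreement most plainly. The first quantification gave Tnni2-201, a coding transcript of 732 bases, 98.5% ± 0.099 of Tnni2 (SD, n = 2). The second gave it 3.81% ± 2.65, and gave 53.9% ± 1.70 to Tnni2-203, a transcript of 895 bases annotated as a retained intron, and 42.2% ± 4.34 to Tnni2-202, a coding transcript of 668 bases. In slow troponin I, Tnni1-207 took 95.4% ± 1.49 in the first quantification and 12.2% ± 1.98 in the second. There Tnni1-202, of 509 bases, took 42.8% ± 1.18, Tnni1-205 31.5% ± 8.18 and Tnni1-206 12.9% ± 4.78. The counts of Tnni2 as a whole were close, at 143370 and 135596 in animals 1 and 2 in the first quantification and 148694 and 138601 in the second. Whole-gene counts were further apart for troponin C. Tnnc2 had 146513 and 120050 in the first and 119046 and 95548 in the second. Tnnc1 had 2237 and 4649 in the first and 1568 and 2925 in the second.

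Cardiac troponin T had too few counts for its transcripts to be told apart. In the first quantification Tnnt2-207 held 50.3% of Tnnt2 in animal 1 and 0% in animal 2, while Tnnt2-202 and Tnnt2-206 held 13.3% each in animal 1 and 29.8% each in animal 2. Tnnt2-205, Tnnt2-214 and Tnnt2-210 had means of 12.05%, 11.2% and 7.03%. The second quantification gave these 6 transcripts 0% and gave means of 61.4% to Tnnt2-209, 21.2% to Tnnt2-213 and 16.6% to Tnnt2-201. In Tnni3, Tnni3-201 had means of 91.0% and 81.8% in the first and second quantification, and Tnni3-202, Tnni3-203 and Tnni3-204, each a retained intron, had means of at most 9.51% in either and reached 17.9% in a single animal.

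Fast troponin T was spread over several coding transcripts. In the first quantification Tnnt3-201 took 42.3% and 41.99% of Tnnt3 in animals 1 and 2, and Tnnt3-224 took 32.6% and 34.4%. Tnnt3-213 followed at 7.6% and 5.5%, and Tnnt3-210 at 7.59% and 4.56%. In the second quantification Tnnt3-225 took 51.3% and 53.3%, Tnnt3-218 19.2% and 25.0%, Tnnt3-224 15.97% and 15.2%, and the short Tnnt3-222 8.58% and 2.18%. Tnnt3-224 was the transcript at 5% or more in both. Tnnt3-225 had 0 counts in both animals in the first quantification, and Tnnt3-201 was at 0% in the second.

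**Figure D3:**
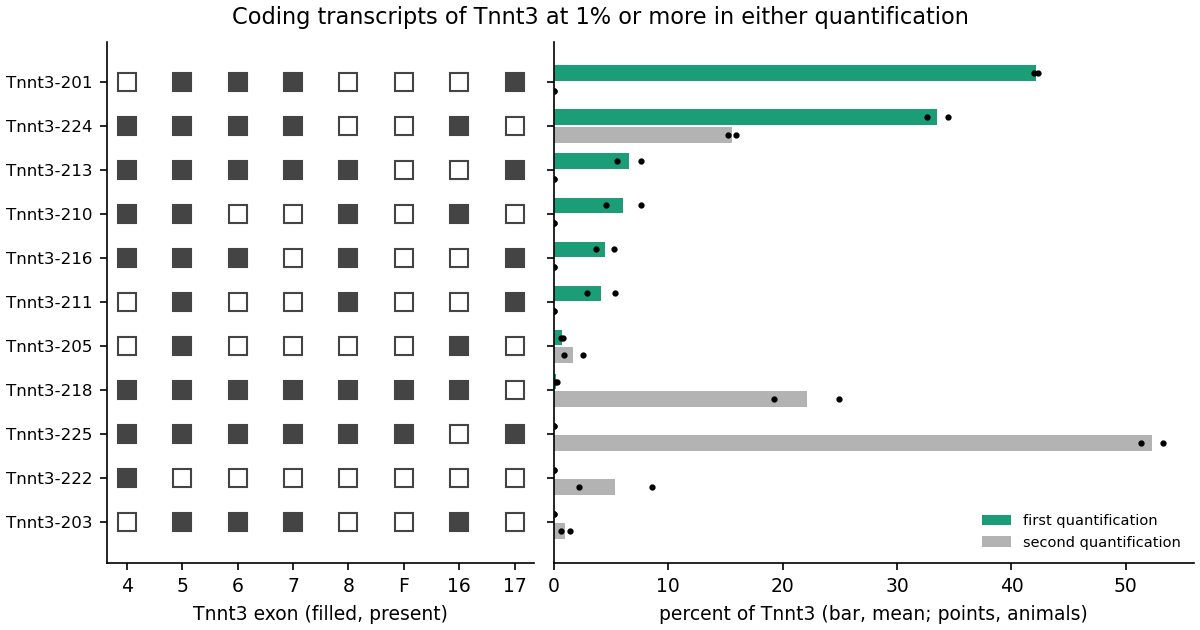
Coding transcripts of Tnnt3 with a mean share of 1% or more in either quantification. The left panel shows which of 8 alternative exons each holds (filled squares), and the right panel the percent of Tnnt3 in each quantification (bars, mean of 2 animals; points, animals), with Tnnt3-201 and Tnnt3-224 leading in the first and Tnnt3-225 and Tnnt3-218 in the second.

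Summing transcripts by exon showed where the quantifications were close. Exon 16 was in 41.6% of the Tnnt3 TPM from transcripts with exon 16 or 17 in animal 1, and in 40.3% in animal 2, by the first quantification. By the second it was in 43.3% and 43.9%. The means were 40.9% ± 0.858 and 43.6% ± 0.396 (SD, n = 2), a gap larger than the spread between the animals but under 3 percentage points. Exon 17 was thus in the larger part of Tnnt3 messenger RNA in both animals and both quantifications, at 59.1% ± 0.858 and 56.4% ± 0.396. In the sequences above, these exons differ at 23 of 41 positions.

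The short 5′ exons and exon F gave different values in each quantification. By the first quantification exon F was in 1.33% of Tnnt3 transcripts by TPM in animal 1 and in 1.12% in animal 2. By the second it was in 71.2% and 80.6%. Exon 8 was in 23.5% and 21.98% in the first and in 71.2% and 80.6% in the second. Exon 4 was in 53.7% and 51.6% in the first, against 96.0% and 98.5% in the second. Exons 5, 6 and 7 were closer, with means of 100%, 87.6% and 83.0% in the first quantification and 94.5%, 92.8% and 92.8% in the second. The use of the fetal exon in this muscle therefore cannot be stated from these tables.

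In the first quantification exon 4 also went with the choice of 3′ exon. It was in 98.0% and 98.3% of the TPM of transcripts with exon 16 in animals 1 and 2, and in 21.9% and 19.7% of those with exon 17. In the second quantification it was in 89.8% and 96.5% of transcripts with exon 16 and in 100% and 99.98% of those with exon 17. These exons lie apart in the transcript, and reads that span both were not analysed here.

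Slow troponin T showed the same dependence on the quantification. Tnnt1-203, Tnnt1-201, Tnnt1-206 and Tnnt1-213 took 35.98% ± 0.792, 28.4% ± 1.85, 15.6% ± 0.559 and 13.1% ± 2.62 in the first quantification. In the second, Tnnt1-206 led with 43.7% ± 4.85, followed by Tnnt1-204 (18.96% ± 1.23), Tnnt1-210 (18.2% ± 1.92) and Tnnt1-203 (17.6% ± 2.51). Exon 5, whose inclusion gives the larger slow troponin T, was in 82.1% and 82.5% of Tnnt1 in animals 1 and 2 by the first quantification, and in 59.6% and 52.7% by the second. The longer form of exon 6, with 3 bases more, took 44.3% and 43.5% of transcripts with either form in the first and 40.0% and 32.7% in the second. The level of Tnnt1 differed between the animals. Its exon 5 use differed by less than 1 percentage point in the first quantification, but by more in the second (59.6% and 52.7%).

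**Figure D4:**
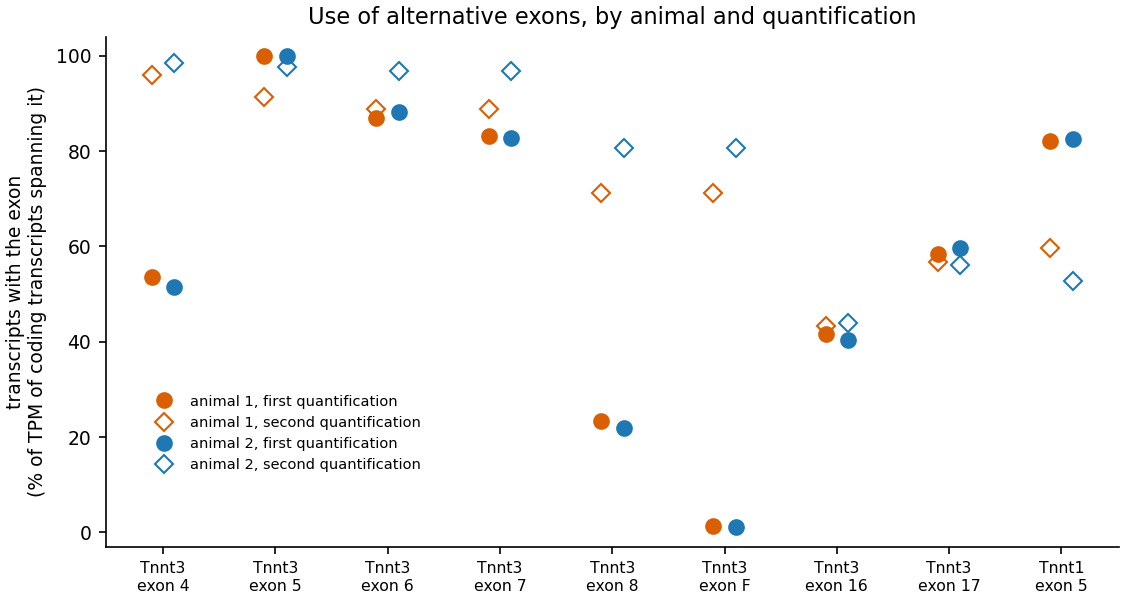
Percent of the TPM of coding transcripts spanning an exon that holds it, for 8 alternative exons of Tnnt3 and exon 5 of Tnnt1; circles are the first and open diamonds the second quantification, coloured by animal. The points of exon 16 run from 40.3% to 43.9% and those of exon 17 from 56.1% to 59.7%, whereas exon F lies near 1% in the first and at 71.2% and 80.6% in the second.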

How the data were processed

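RNA-seq tables of 2 animals (1 group) were analysed. Expected counts and TPM of the first quantification (gene and transcript tables, with posterior mean TPM, its interval, and the percent of a gene taken by each transcript) were computed by the authors, per the file headers. Estimated counts and TPM of the second quantification are the authors' too, and its transcripts were summed to genes here. The deposited descriptions name mm10 and GENCODE M21; tool names and versions were not stated in the sources used here, nor was strand use. How reads of the CAST/EiJ allele aligned was not tested.

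Levels are deposited TPM. Expected counts were rounded, scaled by TMM (edgeR 4.0.16, R 4.3.3), and compared as a ratio with a prior count of 0.5 and exact Clopper-Pearson 95% intervals, among genes at a mean of 1 TPM or more. The ratio step was run on simulated counts that held counting error only, which cannot test differences between animals. DESeq2 1.42.0 size factors were an alternative. A share that differed between quantifications is the summed absolute difference of transcript shares divided by 2. Exon shares use protein-coding transcripts that span the exon. Exon sequences were read from the GENCODE M21 transcripts.

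Named are the members, their transcripts at 5% or more in either quantification, the gene nearest in level to each, and all genes of the lists except 1 marker, which is not reported here. Members and lists were chosen with earlier results of these data known, and the exons after transcript shares were seen.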

Additional observations from a re-analysis of the deposited data

How the results depend on the processing

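The count of slow members past the limit held under the alternatives tried, except that 1 of 3 members (Tnni1) passed a limit of 2-fold. The mean fast over slow ratios moved by less than the spread between the animals, which holds their shared shift. Within each animal they did move. In the second quantification the log2 ratio of troponin T fell from 6.24 to 5.80 in animal 1 and 5.35 to 4.89 in animal 2. For troponin I it fell from 6.93 to 6.34 and from 5.65 to 5.15. For troponin C it rose from 6.08 to 6.325 and from 4.74 to 5.11. The order of troponin T and troponin C in the fast over slow ratio turned in the second quantification. Troponin T over I was 1.53 in the second quantification and 2.43 in expected counts, and troponin T over C was 2.55 in expected counts, which are not corrected for length. Among exon shares, an alternative added after seeing the data, the second quantification gave 43.6% for exon 16, 97.2% for exon 4, 75.9% for exon 8, 75.9% for exon F and 56.1% for Tnnt1 exon 5. Expected counts gave 39.8% for exon 16. The cause of these differences was not tested. The second quantification moved 42 of the 71 values recomputed in it, by more than the spread between animals or, for the ratio of Tnnt2 between animals (0.01 against -0.11), in sign, and posterior mean TPM moved 20 of 62. Leaving out an animal gives the other animal's own value, printed in the report. The ratio of TPM lay lower than that of scaled counts, with a median of -0.12 against -0.02 over all genes. Depth limited Tnnt2 and Tnni3. No paired analysis was possible because the series has 1 group.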

Other observations

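Next to Tnnt3, the mitochondrial ribosomal protein gene Mrpl23 had 0.73 TPM in animal 1 and 3.38 TPM in animal 2 in the first quantification, but 85.8 and 84.1 TPM in the second. On the other side of the pair, Syt8, next to Tnni2, had 2 counts in animal 1 and 0 counts in animal 2. Beside Tnni1, Phlda3 had 20.5 TPM in animal 1 and 22.2 TPM in animal 2, and beside Tnnt1, Ppp1r12c had 7.99 and 8.06 TPM. Pkp1, beside Tnnt2, had 0 counts in animal 1 and 1 count in animal 2, and Syt5, beside Tnni3 across Dnaaf3, had 1 count in each.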
